A study of Mus musculus with 2 samples.

Results

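The 10 Sox transcription factor genes Sox2, Sox4, Sox5, Sox6, Sox8, Sox9, Sox11, Sox12, Sox15 and Sox18 were followed in bulk RNA-sequencing counts of 2 murine rhabdoid tumors. They were taken by name from the 55416 genes of the count table, and all 10 were found there. Rhabdoid tumors (RT) are aggressive and typically lack SMARCB1, which belongs to the SWI/SNF complex that remodels chromatin. Both tumors had arisen in Dppa3-cre::Smarcb1 mice, which carried Cre recombinase knocked in at the Dppa3 locus, active in primordial germ cells, and a floxed Smarcb1 allele in heterozygous state (Smarcb1 fl/+), on a C57BL/6 background. The label of 1 tumor was intracranial, with the trigeminal nerve as site, and that of the other was extracranial, with a facial, maxillar site. Both carried the classification MYC, RNA came from fresh frozen whole tumor tissue, and neither age nor a control tissue is given here.

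Sox proteins bind DNA through a shared domain, the high mobility group (HMG) box, which sits in the minor groove and bends the helix, and they act mostly with partner factors. The family is split into subgroups by the likeness of this box. SoxB1 (Sox2) maintains pluripotent cells, neural progenitors and basal epithelial cells, SoxC (Sox4, Sox11, Sox12) acts in embryonic progenitors, SoxD (Sox5, Sox6) and SoxE (Sox8, Sox9) act in cartilage, neural crest derivatives and glia, SoxF (Sox18) acts in endothelium, and SoxG holds Sox15 alone.

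The start of the HMG box is shown for all 10 genes because this stretch defines the family and because likeness between members bears on whether reads can be assigned to 1 gene. Each run covers 60 bases of the coding strand, 5′ to 3′, read from GENCODE mouse release 21 transcripts (GRCm38). Capitals mark the 23 positions whose base was the same in all 10 genes.
Sox2: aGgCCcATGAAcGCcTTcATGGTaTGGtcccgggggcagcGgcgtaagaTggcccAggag
Sox15: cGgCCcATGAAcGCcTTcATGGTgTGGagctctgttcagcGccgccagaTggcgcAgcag
Sox4: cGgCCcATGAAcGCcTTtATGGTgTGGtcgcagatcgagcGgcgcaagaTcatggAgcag
Sox11: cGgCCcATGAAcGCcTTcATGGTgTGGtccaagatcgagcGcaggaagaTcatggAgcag
Sox12: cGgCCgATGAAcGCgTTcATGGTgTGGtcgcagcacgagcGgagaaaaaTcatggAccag
Sox5: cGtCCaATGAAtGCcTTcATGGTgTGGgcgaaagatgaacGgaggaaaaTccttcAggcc
Sox6: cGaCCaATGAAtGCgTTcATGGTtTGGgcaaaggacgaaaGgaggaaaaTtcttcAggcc
Sox8: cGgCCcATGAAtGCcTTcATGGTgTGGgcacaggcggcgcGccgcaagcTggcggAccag
Sox9: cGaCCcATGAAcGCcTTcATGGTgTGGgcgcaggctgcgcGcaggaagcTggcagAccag
Sox18: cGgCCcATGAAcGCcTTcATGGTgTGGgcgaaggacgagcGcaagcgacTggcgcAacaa

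Over the whole HMG box, the 5 pairs of the same subgroup shared 82.7% to 89.5% of their bases. The 40 pairs of different subgroups shared 53.2% to 73.0%, with Sox2 and Sox15 the most alike among these. The longest run of identical bases between any 2 members' transcripts was 48 bases, between Sox4 and Sox11, and it was 28 bases at most between subgroups. These runs are shorter than the sequenced reads, so no full-length read could match the annotated transcripts of a pair of members exactly.

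The intracranial-labelled library held 34545846 counts over 29670 genes and the extracranial-labelled library held 26915696 counts over 27252 genes. Levels are CPM, the usual depth-scaled unit, over TMM-scaled library sizes, and a count of 3, taken as the floor, corresponded to 0.0863 and 0.112 CPM. Each location had 1 library and no replicate, so differences below compare 2 libraries, have no test, and carry 95% intervals that cover counting error only. Calls, of members and of other genes alike, required that the entire 95% interval of the ratio exceeded 4-fold. Location, individual tumor and tissue content cannot be told apart in this design. Smarcb1 itself had 365 and 530 counts (10.5 and 19.8 CPM), and counts over the whole gene do not separate the floxed part from the rest, so they do not check the deletion. The intracranial-labelled library also held markers that its label does not name. All 14 stratified epithelial markers were called higher there, with a summed 19695 CPM against 8.48 CPM, led by the keratins Krt13 (366709 and 5 counts) and Krt4 (199691 and 9 counts). Of 10 glandular epithelial markers, 8 were called higher there (2513 against 21.7 CPM summed), led by the mucin Muc5b (83812 and 0 counts) and Dcpp1 (890 and 1 count).

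The 10 Sox genes split evenly between the libraries. Sox15, Sox6, Sox2, Sox9 and Sox11 had higher values in the intracranial-labelled library, and Sox5, Sox4, Sox8, Sox18 and Sox12 had higher values in the extracranial-labelled library. Of the members, 3 were called beyond 4-fold. Sox15 and Sox6 were called higher intracranial and Sox5 was called higher extracranial. Among all 21977 genes with at least 10 counts over both libraries, 7.19% were called, with 5.41% higher intracranial and 1.78% higher extracranial. With an interval beyond 2-fold, Sox4 joined as higher extracranial, which made 4 members, against 15.6% of all genes tested (9.77% higher intracranial and 5.86% higher extracranial). The interval excluded equality for 8 members, Sox11 and Sox12 being the exceptions, and it did so for 61.4% of all genes tested. The median log2 ratio, extracranial over intracranial, was -0.37 over the 10 members and -0.04 over all genes tested. The members' median lay midway between Sox11 (-0.85) and Sox12 (0.10), both with intervals that spanned equality. Counting error alone could therefore move this median. All 10 members had at least 10 counts over both libraries and lay above the floor in each.

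**Figure D1:**
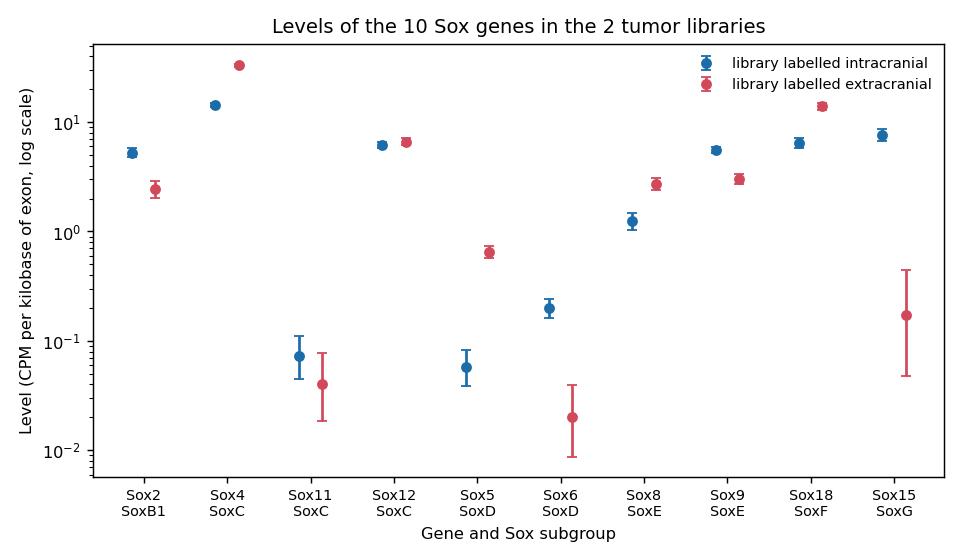
Level of each of the 10 members in CPM per kilobase of exon (vertical, log scale), with genes grouped by subgroup (horizontal), in the intracranial-labelled library (blue) and the extracranial-labelled library (red). Points are single libraries and bars are exact 95% counting intervals. Sox4 is highest in both libraries, at 14.2 and 33.2, while Sox15, Sox5 and Sox6 lie farthest apart of these 10 between the libraries.

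Per kilobase of exon, the scale used here to set levels of different genes side by side, Sox4 had the highest level of the 10 members in both libraries. The length is that of all annotated exons of a gene and not of the transcripts expressed. Genes with many transcripts, such as Sox5 and Sox6, may therefore be set too low, which the counting intervals do not cover. In the intracranial-labelled library, Sox4 was at 14.2 CPM per kilobase, 1.85 times (1.62 to 2.13) the level of the next gene, Sox15. There the order ran Sox4, Sox15, Sox18, Sox12, Sox9, Sox2, Sox8, Sox6, Sox11 and Sox5. Of these neighbours, Sox18 and Sox12, Sox9 and Sox2, and Sox11 and Sox5 did not differ beyond counting error, and the ratio of Sox15 over Sox18 (1.19, upper bound 1.40) had a lower bound only just above equality. In the extracranial-labelled library, Sox4 was at 33.2 CPM per kilobase, 2.39 times (2.19 to 2.61) the level of Sox18, which was second. There the order ran Sox4, Sox18, Sox12, Sox9, Sox8, Sox2, Sox5, Sox15, Sox11 and Sox6. There, Sox9 and Sox8, Sox8 and Sox2, Sox15 and Sox11, and Sox11 and Sox6 did not differ beyond counting error as neighbours, although Sox15 was 8.61 times (1.90 to 32.2) the level of Sox6. On this scale Sox15 stood second among the members in the intracranial-labelled library and eighth in the other. By CPM without length, its rank was 6 and 10, so its place rests on its short exon length of 861 bases.

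Sox2 is a SoxB1 factor of pluripotent cells, neural progenitors and basal epithelium. Its gene has 1 exon of 2057 bases on chromosome 3. It had 377 counts in the intracranial-labelled library, or 10.8 CPM (9.78 to 12.0), and 134 counts in the extracranial-labelled library, or 5.01 CPM (4.20 to 5.93). Sox2 was thus 2.17-fold (1.77 to 2.66) higher intracranial and was not called, since its entire interval lay under 4-fold. Nor was it called beyond 2-fold, since its interval began under 2-fold. Sox2 is transcribed within the long noncoding gene Sox2ot on the same strand, which had 16 and 6 counts and shares no exon base with it. Of 8 genes known as SoxB1 partners in pluripotent cells, 2 had more than 3 counts in either library. Pou5f1, the partner with which Sox2 keeps pluripotency, had 0 counts in both libraries, and Nanog had 1 and 2 counts. Those 2 were Klf4 (9302 and 3558 counts, log2 ratio -1.01), which is also active in differentiated epithelium, and Klf2 (1007 and 1833 counts, log2 ratio 1.24), which is also active in endothelium.

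Sox15, the SoxG member, is known from trophoblast, muscle precursors and epithelium. It lies on chromosome 11 with 861 exon bases. It had 229 counts in the intracranial-labelled library, or 6.59 CPM (5.76 to 7.50), and 4 counts in the extracranial-labelled library, or 0.149 CPM (0.0407 to 0.383). This 44.1-fold difference (17.0 to 163.2) was the widest of the 10 members, and its ratio stood at percentile 1.69 of those of all genes tested. The Sox15 gene overlaps the oppositely transcribed Mpdu1 by 31 exon bases. Mpdu1, an endoplasmic reticulum protein gene, had 1253 and 1252 counts (log2 ratio 0.38), and the neighbour Fxr2 had 2423 and 1713 counts (log2 ratio -0.12), so neither gene differed between the libraries as Sox15 did. Per kilobase, Sox15 was 1.45 times (1.23 to 1.71) the level of Sox2 in the intracranial-labelled library. In the extracranial-labelled library, Sox2 was 14.0 times (5.35 to 52.2) the level of Sox15.

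All 14 stratified and 8 of 10 glandular epithelial markers differed in the same direction as these 2 genes. The 14 stratified epithelial markers had log2 ratios from -15.79 to -3.52 with a median of -8.37. Sox15, at -5.46, lay inside this range, with 13 markers below it and 1 above it. Sox2, at -1.12, lay above all 14. In the extracranial-labelled library 4 of the 14 had 0 counts, among them the defining basal genes Krt5 (25883 and 0 counts) and Trp63 (1284 and 0 counts). Others were detected there, such as Dsc3 (2324 and 156 counts) and Cdh1 (1906 and 26 counts), and Sox2 had 134 counts there. The 10 glandular markers had a median log2 ratio of -5.54. The other 2 of them, Aqp5 (653 and 529 counts) and Foxj1 (32 and 29 counts), had ratios that spanned equality. The part of epithelial tissue in the Sox15 and Sox2 differences was not tested. In bulk tissue, fewer cells of a type and less RNA per cell cannot be told apart.

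The SoxC genes Sox4, Sox11 and Sox12 each consist of 1 exon, and they differed in level and in direction. Sox4, which acts in progenitors and in epithelial-mesenchymal transition and lies on chromosome 13, had 2361 counts in the intracranial-labelled library, or 67.9 CPM (65.2 to 70.7). It had 4259 counts in the extracranial-labelled library, or 159.2 CPM (154.4 to 164.0). The 2.34-fold (2.23 to 2.46) higher value extracranial was the most precise of the 10 ratios, since Sox4 had the most counts. Its level stood at percentile 88.4 of all genes above the floor in at least 1 library for the intracranial-labelled library and at 95.7 in the other. The annotated noncoding gene Gm26735 overlaps 2616 exon bases of Sox4 on the opposite strand, has no row of its own here, and its reads could not be separated from those of Sox4 if strand was not used in counting.

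Sox12, on chromosome 2, had 956 and 789 counts, or 27.5 and 29.5 CPM. Its ratio was 1.07-fold (0.974 to 1.18) with an interval that spans equality, so Sox12 differed by less than counting error while Sox4 did not. Sox11, a gene of immature neurons and neural progenitors on chromosome 12, had 21 and 9 counts, or 0.604 CPM (0.374 to 0.924) and 0.336 CPM (0.154 to 0.638). Its log2 ratio of -0.85 had an interval from -2.16 to 0.34, so a difference was not detectable at this depth. Per kilobase, Sox4 was 2.29 times (2.13 to 2.48) the level of Sox12 in the intracranial-labelled library and 5.01 times (4.65 to 5.42) in the extracranial-labelled library. Sox4 was 194.9 times (127.2 to 315.4) and 820.2 times (431.7 to 1795) the level of Sox11. The neural lists that go with Sox11 and Sox2 in normal tissue were mixed in direction, with summed levels of 20.3 and 40.0 CPM for brain glia and progenitors and of 61.9 and 130.1 CPM for sensory ganglion neurons. Of 12 brain glia and progenitor markers, 7 had a ratio (2 higher extracranial, 5 higher intracranial, none called), Hes5 and Olig2 had 0 counts in both libraries, and the highest were the intermediate filament gene Nes (515 and 1003 counts) and the glutamate transporter gene Slc1a3 (94 and 35 counts). Of 12 sensory ganglion neuron markers, 5 were higher extracranial and 6 higher intracranial, and 1 was called. That gene was the neurofilament gene Nefl (396 and 1613 counts), which with the microtubule regulator Stmn2 (713 and 1275 counts) led the list. The sensory neuron determinants Isl1 (3 and 4 counts) and Pou4f1 (9 and 1 counts) were near the floor in both libraries. Other markers of this list had more counts, with Tubb3 (629 and 118) higher intracranial and Nefm (256 and 287) and Prph (97 and 181) higher extracranial.

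The SoxD genes Sox5 and Sox6 encode close relatives that dimerize and act beside Sox9 in cartilage, and they went in opposite directions. Sox5, on chromosome 6 with 25 exon blocks over 14376 bases, had 29 counts in the intracranial-labelled library, or 0.835 CPM (0.559 to 1.20). It had 248 counts in the extracranial-labelled library, or 9.27 CPM (8.15 to 10.5). This was 11.1-fold (7.54 to 16.9) higher extracranial and stood at percentile 99.2 of the ratios of all genes tested. Sox6, on chromosome 7 with 25 exon blocks over 14832 bases, is also known for repressing embryonic globin genes and slow muscle fibre genes. Sox6 had 103 counts in the intracranial-labelled library, or 2.96 CPM (2.42 to 3.60), and 8 counts in the extracranial-labelled library, or 0.299 CPM (0.129 to 0.589). That made it 9.92-fold (4.85 to 23.6) higher intracranial. Within each library the pair was therefore unequal in opposite ways. Per kilobase, Sox6 was 3.44 times (2.26 to 5.39) the level of Sox5 in the intracranial-labelled library, and Sox5 was 32.0 times (16.0 to 74.9) the level of Sox6 in the extracranial-labelled library.

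The antisense gene Sox5os1 overlaps 1330 exon bases of Sox5 and had 0 counts in both libraries, as did the other antisense and intronic RNA genes Sox5os2 to Sox5os5, Sox5it and Sox6os. The gene 1110004F10Rik, which lies under 1 kilobase from Sox6 on the opposite strand, had 3247 and 2315 counts (log2 ratio -0.11). None of these genes had a called difference. Gene counts do not resolve isoforms, and both SoxD genes have long and short forms.

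Of 12 cartilage genes bound by the trio of Sox5, Sox6 and Sox9, 9 had a ratio and their median was -0.04. That median was the ratio of Snorc, which had only 4 and 3 counts and an interval from -2.81 to 2.53. The cartilage collagen Col2a1 had 23 and 21 counts and the proteoglycan gene Acan had 8 and 2 counts, so the defining cartilage genes were low in both libraries. The calls went both ways. Col11a1, a fibrillar collagen gene, was higher extracranial (256 and 1561 counts, log2 ratio 2.99, 2.79 to 3.18). Comp, an extracellular matrix gene also expressed in tendon, was higher intracranial (6474 and 270 counts, log2 ratio -4.21, -4.39 to -4.03). Muscle and blood markers were also counted, since Sox6 acts on slow fibre and embryonic globin genes in normal tissue. The slow fibre genes Tnnc1 (78 and 70 counts) and Tnni1 (14 and 16 counts) had ratios that spanned equality, and Myh7 had 1 and 2 counts. The embryonic globin gene Hbb-y had 0 and 6 counts. Of 13 skeletal muscle markers, 8 had a ratio with a median of -2.36. Called higher intracranial were 3 of them, among them the fast myosin gene Myh1 (243 and 2 counts), while Acta1 had the highest counts (545 and 173) and the muscle determinants Myod1 and Myf5 had 0 counts in both. Of 8 erythroid markers, 5 were higher extracranial and 2 higher intracranial, with a median of 1.33 and none called beyond 4-fold. The globin genes Hba-a1 (492 and 947 counts) and Hba-a2 (454 and 880 counts) led this list, and as near-identical copies their separate counts are uncertain. Whether muscle or blood content had a part in the Sox6 difference was not tested.

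The SoxE genes also differed in opposite directions, by smaller amounts. Sox9, which specifies cartilage, gland ducts and neural crest and lies on chromosome 11, had 802 counts in the intracranial-labelled library, or 23.1 CPM (21.5 to 24.7). It had 333 counts in the extracranial-labelled library, or 12.4 CPM (11.1 to 13.9), which made it 1.85-fold (1.63 to 2.11) higher intracranial. Sox8, a relative that acts in neural crest, glia and testis and lies on chromosome 17, had 135 counts, or 3.89 CPM (3.26 to 4.60), and 228 counts, or 8.52 CPM (7.45 to 9.70). Sox8 was thus 2.19-fold (1.76 to 2.73) higher extracranial. Neither gene was called beyond 4-fold or 2-fold. Per kilobase, Sox9 was 4.48 times (3.73 to 5.42) the level of Sox8 in the intracranial-labelled library, whereas in the extracranial-labelled library the ratio was 1.10 (0.928 to 1.31) and spanned equality. The noncoding gene 2810468N07Rik overlaps 329 exon bases of Sox8 on the opposite strand and had 161 and 113 counts (log2 ratio -0.13), on the order of the Sox8 counts themselves. Without strand, reads of this stretch could not be assigned to either gene, which leaves the Sox8 values less certain than those of Sox9. Next to Sox9, the noncoding gene BC006965 had 10 and 1 counts. The protein-coding neighbours Lmf1 of Sox8 (445 and 456 counts, log2 ratio 0.41) and Zcchc3 and Nrsn2 of Sox12 (280 and 165 counts, and 4 and 3 counts) were not called. Genes annotated next to or within a member and not named here had at most 12 counts in either library or no row in the table.

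Sox10, the SoxE gene of Schwann cells and melanocytes and not one of the 10 members, had 43 and 0 counts. Against a floor of 3 counts in the extracranial-labelled library, its fold was 11.0 with a counting bound of 8.60, so it was at least 8.60-fold higher intracranial, and it was called. Of 12 Schwann cell and neural crest markers, 9 were higher intracranial and 3 higher extracranial, with a median log2 ratio of -0.92. Called higher intracranial were 3 of these, and 1 was called higher extracranial, the myelination factor Egr2 (630 and 2396 counts, log2 ratio 2.30). Pmp22, a peripheral myelin gene also expressed outside glia, had the highest counts (6168 and 3623). The ratios of Sox9 (-0.89) and Sox8 (1.13) both had markers of this list above and below them. Above Sox8 were Egr2 and the myelin gene Mag (86 and 282 counts, log2 ratio 2.09). Of 10 glandular epithelial markers, 8 were called higher intracranial, the direction of Sox9, and the ratios of the other 2 spanned equality. The part of Schwann cells and of glandular tissue in the Sox8 and Sox9 differences was not tested.

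Sox18, a SoxF factor of blood and lymphatic endothelium on chromosome 2, had 363 counts in the intracranial-labelled library, or 10.4 CPM (9.40 to 11.6). It had 602 counts in the extracranial-labelled library, or 22.5 CPM (20.7 to 24.4), and was thus 2.15-fold (1.89 to 2.46) higher there. The other SoxF genes had the same direction. Sox7 had 152 and 191 counts (log2 ratio 0.71, 0.39 to 1.02) and Sox17 had 78 and 108 counts (log2 ratio 0.85, 0.41 to 1.29). All 12 endothelial markers were higher in the extracranial-labelled library as well, with log2 ratios from 0.11 to 1.80, a median of 1.20 and a summed 237.9 against 443.4 CPM. None was called beyond 4-fold and 6 were called beyond 2-fold. The endothelial cadherin gene Cdh5 had 750 and 1600 counts, the junction gene Cldn5 had 3086 and 2559 counts, and Pecam1 had 1274 and 1818 counts. The ratio of Sox18 (1.11) lay within the range of the markers, with 8 of them above it and 4 below it.

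The SoxF genes were also set against the summed counts of these 12 markers (8265 and 11865). Sox18 amounted to 4.39% (3.94 to 4.88) of the marker counts in the intracranial-labelled library and 5.07% (4.67 to 5.51) in the extracranial-labelled library. Sox7 amounted to 1.84% (1.56 to 2.16) and 1.61% (1.39 to 1.86), and Sox17 to 0.944% (0.745 to 1.18) and 0.910% (0.746 to 1.10). These shares rest on Cldn5, the most abundant marker and the one with the lowest ratio. Without it, in a sum chosen after seeing the data, Sox18 amounted to 7.01% (6.28 to 7.80) and 6.47% (5.95 to 7.03). The library with the higher Sox18 share thus changed with the sum, and the Sox18 intervals of the libraries overlapped with either sum. No interval was computed for the ratio of the shares, so this overlap does not show that they were equal. Sox17 amounted to 1.51% (1.19 to 1.88) and 1.16% (0.951 to 1.40). Sox7 then amounted to 2.93% (2.48 to 3.45) and 2.05% (1.77 to 2.37), with intervals that did not overlap. The part of endothelial content in the SoxF differences was not tested. Lymphatic markers, for which Sox18 acts upstream of the lymphatic determinant Prox1, did not share one direction. Prox1 had 9 and 9 counts, Flt4 had 101 and 109 counts, and Lyve1, also expressed in some macrophages, had 1031 and 18 counts (log2 ratio -5.46). Of the 6 lymphatic markers, 3 were higher extracranial, 3 were higher intracranial and 2 were called higher intracranial. The neighbour Tcea2 of Sox18 had 536 and 227 counts (log2 ratio -0.86), opposite in sign to Sox18.

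**Figure D2:**
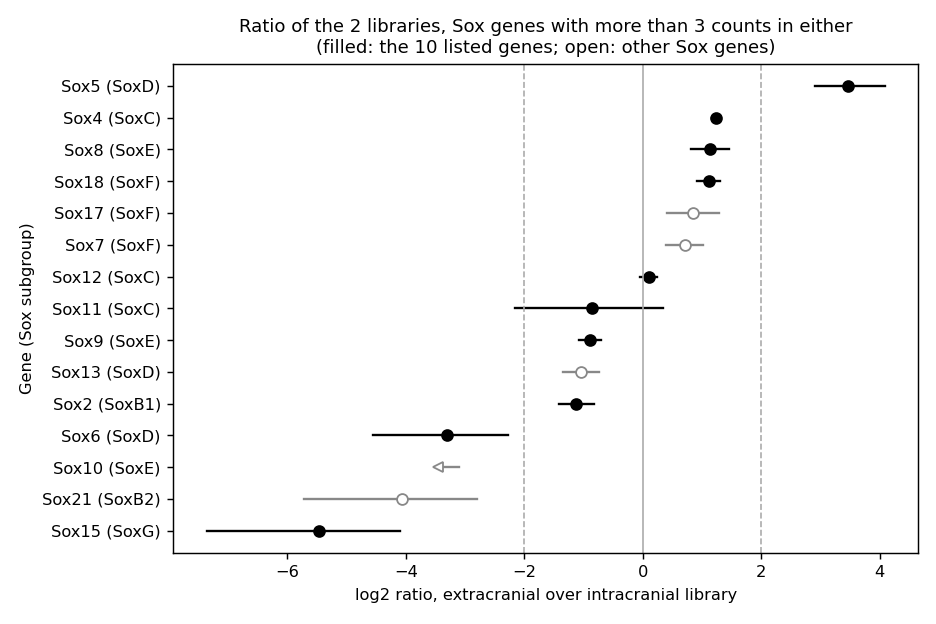
Log2 ratio, extracranial over intracranial, of the 15 Sox genes above the floor in at least 1 library (horizontal), 1 gene per line with its subgroup (vertical). Filled points are the 10 members, open points other Sox genes, lines exact 95% counting intervals, the triangle of Sox10 a bound from the floor of 3 counts, and dashed lines mark 4-fold. Sox5 at 3.47 and Sox6 at -3.31, of the same subgroup, lie beyond 4-fold on opposite sides, and Sox15 at -5.46 lies lowest.

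Of the 10 other Sox genes, 5 had more than 3 counts in either library, and 2 of these were called, both higher intracranial. Sox21, a SoxB2 gene that counteracts SoxB1 in neural progenitors and is also active in epithelium, had 108 and 5 counts (log2 ratio -4.06, -5.71 to -2.79). Sox10 was the other. Sox13, the third SoxD gene, had 335 and 125 counts (log2 ratio -1.05, -1.35 to -0.74), so it had the direction of Sox6 and not that of Sox5. Sox1, Sox14 and Sry had 0 counts in both libraries, with upper limits of 0.106 and 0.138 CPM. Sox3 had 0 and 1 counts and Sox30 had 0 and 2 counts, which is within the floor. Among the SoxB1 genes, Sox2 was therefore the only one above the floor in these libraries.

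Summed over the 10 members, Sox counts were 5376 in the intracranial-labelled library, or 154.7 CPM (150.6 to 158.9), and 6614 in the extracranial-labelled library, or 247.2 CPM (241.2 to 253.2). All 20 Sox genes together gave 175.3 and 263.3 CPM. Per kilobase, SoxC genes were the main part of this Sox pool in both libraries, with 39.2% and 59.5%. Sox4 alone made up 27.2% (26.2 to 28.2) of the pool in the intracranial-labelled library and 49.6% (48.4 to 50.8) in the extracranial-labelled library. Sox15 made up 14.7% and 0.259%, and Sox18 made up 12.4% and 20.7%. Sox2 made up 10.1% and 3.64%, Sox9 10.7% and 4.50%, Sox12 11.8% and 9.89%, and Sox8 2.39% and 4.08%. The remaining members, Sox5, Sox6 and Sox11, each stayed under 1% in both libraries on this scale. The shares depend on exon length, which is short for Sox15 and long for Sox5 and Sox6. In counts without length, Sox15 made up 3.76% and 0.0568%, and Sox18 made up 5.96% and 8.54%. Sox5 then made up 0.476% and 3.52%, and Sox6 made up 1.69% and 0.114%. As shares of 1 total, these percentages depend on one another.

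**Figure D3:**
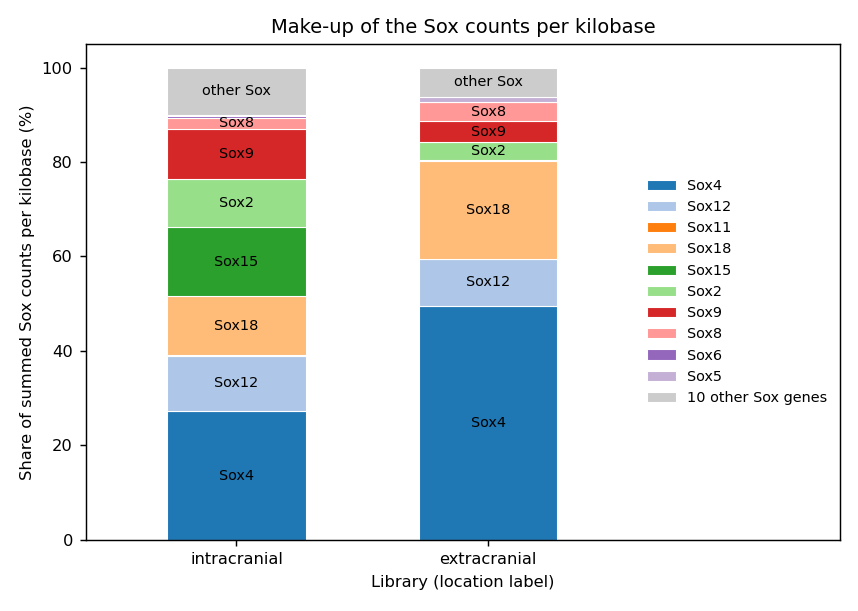
Share of each Sox gene in the summed counts per kilobase of all 20 Sox genes (vertical, percent, from 0), 1 stacked bar per library (horizontal). Sox4 takes 27.2% and 49.6%, Sox15 takes 14.7% in the intracranial-labelled library and 0.259% in the other, and the 10 Sox genes outside the list are drawn together in grey.

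Lists of proliferation, macrophage and mesenchymal genes were set beside Sox4, the most abundant member. The 10 proliferation genes were all higher extracranial, with a median of 0.41, and Mki67 (3149 and 3527 counts) and Pcna (3803 and 4643 counts) led them. The 10 macrophage markers were all higher extracranial, with a median of 1.53, a summed 5862 against 13219 CPM and 1 called, led by Lyz2 (102495 and 124735 counts) and C1qa (23483 and 53683 counts). Of 10 mesenchymal markers, 8 were higher intracranial, with a median of -0.36 and none called, led by Vim (156919 and 101372 counts) and Col1a2 (60210 and 64597 counts). The ratio of Sox4 (1.23) thus lay between the medians of the proliferation and the macrophage lists. The medians of the endothelial (1.20) and erythroid (1.33) lists were nearer to it. The part of proliferation and of these cell types in the Sox4 difference was not tested.

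**Figure D4:**
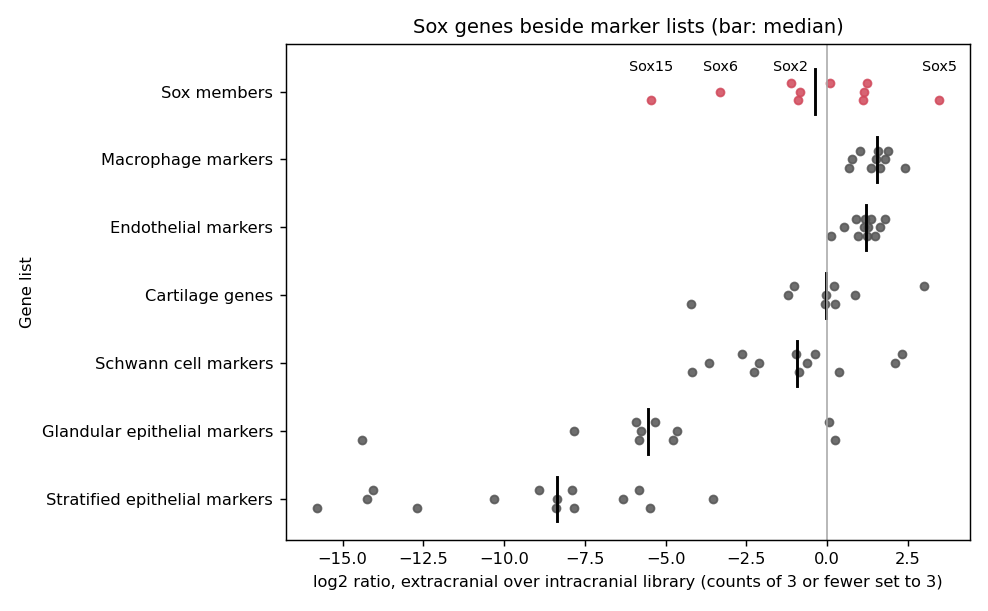
Log2 ratio, extracranial over intracranial (horizontal, counts of 3 or fewer set to 3), of the genes of 7 lists (vertical), 1 point per gene and a bar at each list's median. The Sox genes spread from -5.46 to 3.47 around a median of -0.37, the 14 stratified epithelial markers lie between -15.79 and -3.52, and the 12 endothelial and 10 macrophage markers all lie above 0.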

How the data were processed

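Poly(A) RNA of 2 tumors was sequenced as single reads from directional libraries. The authors used STAR 2.7.9a for alignment to GRCm39 (Ensembl 104) and featureCounts for counting over genes, and the deposited values are raw counts with no normalization. Strand setting, multi-mapping and the featureCounts version are not given in the sources used here. Per the submitters' processing notes, FastQC 0.11.9 and MultiQC 1.11 were also run.

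Groups came from the localization label. Counts were scaled by TMM in edgeR 4.0.16 (R 4.3.3), with factors of 1.0058 and 0.9942. Levels have Clopper-Pearson 95% intervals and ratios have conditional exact binomial 95% intervals (Python 3.11.15, scipy 1.17.1), which cover counting error only, since each location had 1 library. Reads carried no molecular identifiers, so copies of 1 molecule could not be recognized and the intervals may be too narrow. Counts of 3 or fewer were set to 3 for ratios, and a gene with 3 or fewer in both libraries got none. No test was run, since edgeR's quasi-likelihood model needs more than 1 library per location. Procedures were tested on simulated counts that held counting error only, which says nothing on variation between tumors.

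Symbols (94.1% of IDs), exon lengths and chromosomes came from GENCODE mouse release 21 (GRCm38), older than the models counted on, so no coordinates are given. The members and the 18 gene lists were chosen with earlier results of these data known. All 10 members, the 10 other Sox genes, and in each list the 2 most abundant genes and those at 0 in both libraries were named by rule, and so were genes next to or overlapping a member. Other genes were named after their values were seen. Of these, Krt5, Trp63, Col2a1, Acan, Nanog, Cdh5, Prox1, Isl1 and Pou4f1 were taken as usual defining genes. The rest were Tnnc1, Tnni1, Myh7, Hbb-y, Mag, Aqp5, Foxj1, Dsc3, Cdh1, Tubb3, Nefm, Prph and Snorc. Alternatives were DESeq2 1.42.0 size factors, total counts, upper quartile scaling, other count minimums, an interval beyond 2-fold, the ratio alone, a prior count of 2, protein-coding genes as background and levels without exon length.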

Additional observations from a re-analysis of the deposited data

How the results depend on the processing

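No paired analysis was possible because the locations had a single library apiece, and for the same reason no library could be left out. The count of members called beyond 4-fold was 3 under DESeq2 size factors, total counts, upper quartile scaling, both other count minimums and the ratio alone, and it was 4 with an interval beyond 2-fold. The members' median log2 ratio lay between -0.39 and -0.29 over the other scalings and a prior count of 2. All 40 recomputed member ratios kept their sign and stayed within the counting interval, and the scalings moved the median ratio of genes with 100 or more counts by -0.02 to 0.04. Exon length mattered for levels, as it divides each count. Without it, 3 members in the intracranial-labelled library and 2 in the extracranial-labelled library kept their place in the order of 10, and the share of Sox4 in the Sox pool was 38.8% and 60.4% in place of 27.2% and 49.6%. Among protein-coding genes, which leave out many low noncoding genes, the members' median level percentile was 38.5 and 42.1, against 53.2 and 55.8 among all genes above the floor. An alternative added after seeing the data left the most abundant endothelial marker out, and all 6 SoxF shares then rose beyond their counting intervals. A smaller marker sum raises every share by itself, so this rise does not bear on the comparison between the libraries. Depth limited Sox11 (21 and 9 counts), Sox6 (8 counts extracranial) and Sox15 (4 counts extracranial) most.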
